A study of Homo sapiens with 18 samples.

Results

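The 10 genes described here are core regulators and markers of the human pluripotent state: POU5F1, its near-copy POU5F1B, NANOG, ZFP42, ZSCAN10, VRTN, PRDM14, SALL4, L1TD1 and ESRG. They were chosen by symbol from the 26485 gene rows of the count files, and no threshold on measured values was part of the choice. Of the 10, 9 had at least 1 count and passed the filter on low counts, while ZFP42 had 0 counts in all 18 libraries. All libraries derive from the human embryonic stem cell (hESC) line WIBR3, measured as stem cells and as organoids grown from them at Day 5 and Day 12. Each stage held 3 libraries of LIS1+/- cells, which carry 1 altered copy of LIS1 (gene symbol PAFAH1B1, a regulator of the motor protein dynein), and 3 libraries of LIS1+/+ cells with both copies intact. RNA was counted by bulk MARS-seq, which reads short tags near the 3′ ends of transcripts. Genotype and clone cannot be told apart, because the sources used here do not say how many clones were used. They also do not say which part of LIS1 was altered.

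Pluripotent stem cells keep themselves undifferentiated through a small network of transcription factors. POU5F1 (also called OCT4) binds DNA together with SOX2 at many of the genes of the network, NANOG among them, and each of the core factors helps to maintain the others. When stem cells are steered towards neural tissue the network is shut down, POU5F1 and NANOG are silenced, and SOX2 stays on because neural progenitors use it as well. The zinc finger proteins PRDM14, ZSCAN10, SALL4 and ZFP42 (also called REX1) are nuclear factors of this network, L1TD1 is an RNA-binding protein derived from a LINE-1 retrotransposon, and ESRG is a long non-coding RNA made from an endogenous retrovirus and abundant in human stem cells.

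The promoter windows of NANOG, ZSCAN10, VRTN and L1TD1 are shown because all 4 genes were lost during organoid growth and, of the windows matched, only that of NANOG carries the joint POU5F1 and SOX2 motif. Each window runs 5′ to 3′ on the gene's own strand, from 250 bases before to 50 bases after the annotated start, and comes from RefSeq on GRCh38.p14. Windows were matched for 5 of the 10 genes, these 4 and ZFP42. The motifs searched, on both strands, were the octamer ATGCAAA, the SOX motif CATTGT and the composite of both, in which the SOX motif is followed by 1 base of any kind and then the octamer. In the NANOG window, on the plus strand at chr12:7789152-7789451, capitals mark the composite, read on the opposite strand at positions -120 to -107 from the start.
NANOG: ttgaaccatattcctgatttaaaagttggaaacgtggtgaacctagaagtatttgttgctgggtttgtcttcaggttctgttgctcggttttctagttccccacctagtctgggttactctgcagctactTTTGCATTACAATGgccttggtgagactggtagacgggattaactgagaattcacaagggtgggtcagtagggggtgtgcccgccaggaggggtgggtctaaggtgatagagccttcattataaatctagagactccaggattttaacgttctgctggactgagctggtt
Of 35116 promoter windows of the same length, 3 hold the composite (0.00854%), 4.46% hold the octamer and 10.8% hold the SOX motif. None of the 3 motifs was found in the other matched windows. In these, capitals mark CpG dinucleotides, the sites of DNA methylation in mammals. The ZSCAN10 window lies on the minus strand at chr16:3099245-3099544 and holds 4 CpG.
ZSCAN10: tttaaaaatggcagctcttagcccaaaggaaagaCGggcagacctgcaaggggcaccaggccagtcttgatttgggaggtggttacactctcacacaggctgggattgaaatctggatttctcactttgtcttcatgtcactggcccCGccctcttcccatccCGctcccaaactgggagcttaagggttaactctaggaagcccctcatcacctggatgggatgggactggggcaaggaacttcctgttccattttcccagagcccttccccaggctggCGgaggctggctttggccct
The VRTN window lies on the plus strand at chr14:74348221-74348520 and holds 5 CpG.
VRTN: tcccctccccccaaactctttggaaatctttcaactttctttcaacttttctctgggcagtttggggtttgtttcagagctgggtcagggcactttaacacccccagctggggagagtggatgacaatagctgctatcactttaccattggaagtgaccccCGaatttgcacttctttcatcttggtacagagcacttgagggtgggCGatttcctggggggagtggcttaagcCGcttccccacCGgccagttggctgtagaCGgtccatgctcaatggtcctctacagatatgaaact
The L1TD1 window lies on the plus strand at chr1:62194599-62194898 and holds 14 CpG.
L1TD1: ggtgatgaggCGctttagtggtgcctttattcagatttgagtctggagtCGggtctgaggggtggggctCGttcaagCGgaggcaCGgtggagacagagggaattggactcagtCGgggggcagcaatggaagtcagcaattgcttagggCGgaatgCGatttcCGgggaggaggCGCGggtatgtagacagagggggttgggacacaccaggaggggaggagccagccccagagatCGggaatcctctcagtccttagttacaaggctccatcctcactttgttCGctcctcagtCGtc
The median over all windows is 14 CpG, and 75.5% of windows have at least as many as ZSCAN10, against 70.4% for VRTN and for NANOG and 50.3% for L1TD1. NANOG, ZSCAN10 and VRTN have fewer CpG than the median window, and L1TD1 has as many. A match to a motif is a description of the letters only.

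The gene rows summed to between 1425098 and 4501489 counts per library. Values below are in CPM, the counts of a gene relative to the TMM-scaled size of its library. The 3 stages were sequenced under 3 pool numbers, per the file names, and stage and pool cannot be told apart. In bulk RNA fewer cells of a type and less RNA per cell cannot be told apart either. The share of alignments set aside as not unique averaged 42.8% in LIS1+/- hESC and 52.9% in LIS1+/+ hESC, against 27.3% to 32.5% in the organoid groups. Its part in the hESC values below was not tested. PAFAH1B1 itself was lower in every LIS1+/- library than in every LIS1+/+ library of its stage. It stood at 62.7% of the LIS1+/+ level in hESC, 66.7% at Day 5 and 58.2% at Day 12. Such separation with LIS1+/- lower was met by 7.69%, 9.45% and 8.43% of tested genes at these stages. The PAFAH1B1 difference missed the threshold in hESC (edgeR adjusted p = 0.173) and at Day 5 (0.148). It passed at Day 12 (0.0373).

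POU5F1 fell steeply in both genotypes by Day 5 and was close to absent by Day 12. In LIS1+/- it measured 507, 399 and 456 CPM in hESC, 8.57, 7.29 and 5.83 CPM at Day 5, and 1, 2 and 2 counts at Day 12. In LIS1+/+ it measured 560, 527 and 458 CPM in hESC, 32.5, 32.6 and 37.3 CPM at Day 5, and 1 count in each library at Day 12. The genotypes overlapped in hESC and at Day 12, but at Day 5 the highest LIS1+/- library stood below the lowest LIS1+/+ library. By Day 5 LIS1+/- kept 1.59% of its hESC level (95% confidence interval 1.2 to 2.1%), whereas LIS1+/+ kept 6.63% (5.24 to 8.38%). From Day 5 to Day 12 POU5F1 fell by a further 3.53 ± 0.38 on the log2 scale in LIS1+/- (SE, n = 3 against 3, edgeR adjusted p = 2.12e-07). In LIS1+/+, with 3 counts left at Day 12, the pooled level was 59.3-fold lower at Day 12 than at Day 5 (95% counting interval 20.2 to 289).

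POU5F1B, a retrogene copy of POU5F1, ran in parallel. It measured 404, 321 and 352 CPM in LIS1+/- hESC and 469, 434 and 485 CPM in LIS1+/+ hESC. At Day 5 it measured 4.47, 4.37 and 2.62 CPM in LIS1+/- and 23.1, 29.2 and 26.3 CPM in LIS1+/+. The groups did not overlap at either stage, and the Day 5 gap was much the wider. At Day 12 the counts were 0, 0 and 3 in LIS1+/- and 3, 1 and 1 in LIS1+/+. LIS1+/- kept 1.06% at Day 5 (0.728 to 1.54%) and LIS1+/+ kept 5.68% (4.21 to 7.65%).

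The POU5F1 and POU5F1B values may not be independent. Of the 461 runs of 40 bases in the last 500 bases of the POU5F1 transcript, 69.2% also occur in transcripts of other genes and 44.5% occur in POU5F1B, followed by the pseudogenes POU5F1P3 and POU5F1P4. In the other direction, 0 of the 461 runs in the last 500 bases of the POU5F1B transcript occur in another gene. Only the end of 1 transcript per gene was searched, 4765 bases long for POU5F1B and 2276 for POU5F1. The sources used here do not say how reads from shared runs were assigned, so the division of counts within the pair is uncertain. POU5F1B took 44.1% of the pair's counts in LIS1+/- hESC and 47.2% in LIS1+/+ hESC, and at Day 5 34.4% (exact binomial 95% interval 25 to 44.8%) in LIS1+/- and 43.5% (40 to 47%) in LIS1+/+. When both rows were summed into 1, the Day 5 genotype difference was -2.46 on the log2 scale (adjusted p = 9.15e-09).

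NANOG, the homeodomain factor at the centre of the network, was counted thinly even in stem cells. The hESC counts were 6, 11 and 10 in LIS1+/- and 9, 15 and 15 in LIS1+/+, or 3.78, 4.94 and 3.59 CPM against 4.27, 9.99 and 9.28 CPM. At Day 5 there were no counts in LIS1+/- and 3 in 1 LIS1+/+ library, and at Day 12 there were none in either genotype. The Day 5 level was at least 12.1-fold lower than in hESC in LIS1+/-, taking 3 counts over the group as the floor, and 32.5-fold lower (10.3 to 164) in LIS1+/+. At 0 against 3 counts, a genotype difference at Day 5 was not detectable at this depth.

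PRDM14, which represses lineage genes in stem cells, followed the same course at low counts. In hESC it had 13.8, 20.7 and 25.2 CPM in LIS1+/- and 19.9, 28.6 and 23.5 CPM in LIS1+/+, with overlapping groups. At Day 5 the counts were 0, 2 and 0 in LIS1+/- and 6, 8 and 4 in LIS1+/+, and at Day 12 all 6 libraries stood at 0. LIS1+/- thus held 2 counts at Day 5, a pooled level 92.6-fold lower than in hESC (25.2 to 773). LIS1+/+ kept 5.95% of its hESC level (2.99 to 11.8%). The Day 5 groups did not overlap, with the pooled LIS1+/- level 6.10-fold lower (1.46 to 54.2), but PRDM14 missed the threshold (edgeR adjusted p = 0.231).

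ZFP42, a widely used marker of undifferentiated stem cells, was listed at 0 in the stem cells as well. Over a group of 3 libraries, a count of 0 allows a level of up to 0.455 CPM in LIS1+/- hESC and 0.574 CPM in LIS1+/+ hESC. Of the 461 runs of 40 bases at its 3′ end, 6.5% occur in other genes. Whether the counting reached the ZFP42 transcript was not tested, and the other 9 regulators were all counted in every hESC library.

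ZSCAN10, a SCAN-domain zinc finger factor, showed 1 of the wider Day 5 gaps. It measured 557, 642 and 586 CPM in LIS1+/- hESC and 647, 602 and 476 CPM in LIS1+/+ hESC. At Day 5 it measured 1.86, 6.56 and 8.75 CPM in LIS1+/- and 56.0, 45.8 and 49.2 CPM in LIS1+/+. The stem cells overlapped and the Day 5 groups did not, with the highest LIS1+/- library far below the lowest LIS1+/+ library. LIS1+/- kept 0.999% of its hESC level at Day 5 (0.572 to 1.74%), against 8.75% (5.62 to 13.6%) in LIS1+/+. At Day 12 the counts were 5, 3 and 0 in LIS1+/- and 8, 2 and 1 in LIS1+/+.

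VRTN, the human form of vertnin, a gene linked in pigs to the number of vertebrae, kept a larger share of its stem cell level at Day 5 than POU5F1 did, in both genotypes. It measured 576, 544 and 528 CPM in LIS1+/- hESC and 585, 539 and 496 CPM in LIS1+/+ hESC. At Day 5 it measured 19.4, 27.0 and 16.3 CPM in LIS1+/- and 89.7, 86.7 and 90.8 CPM in LIS1+/+. The Day 5 groups were well apart while the hESC groups lay on top of each other. LIS1+/- kept 3.79% (2.57 to 5.58%) and LIS1+/+ 16.5% (11.8 to 23.2%). From Day 5 to Day 12 VRTN fell by 4.61 ± 0.47 on the log2 scale in LIS1+/- and by 4.65 ± 0.36 in LIS1+/+, to 1, 6 and 0 counts in LIS1+/- and 12, 4 and 2 counts in LIS1+/+. On so few counts single libraries carry these values: the decline was 6.41 without Day 12 LIS1+/- replicate 2 and 3.90 without replicate 3 in LIS1+/-, and 5.72 without Day 12 LIS1+/+ replicate 1 in LIS1+/+.

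SALL4, a spalt-family zinc finger factor that is also used by early embryonic and progenitor cells, behaved differently from the rest. It measured 109, 88.5 and 125 CPM in LIS1+/- hESC and 76.4, 85.2 and 67.5 CPM in LIS1+/+ hESC. At Day 5 it measured 83.4, 56.1 and 89.5 CPM in LIS1+/- and 122, 118 and 93.3 CPM in LIS1+/+. Every LIS1+/- library stood above every LIS1+/+ library in hESC and below every one at Day 5. Such separation was met by 10.6% and 9.45% of tested genes, and neither the genotype differences (edgeR adjusted p = 0.378 in hESC and 0.266 at Day 5) nor the difference in change (0.133) passed. The Day 5 level was 71.0% of hESC in LIS1+/- (52.7 to 95.8%), which missed the threshold (-0.49 ± 0.21, edgeR adjusted p = 0.0588), and 145% in LIS1+/+ (108 to 196%), which passed as a rise (0.54 ± 0.21, adjusted p = 0.0399, with 22.9% of tested genes called higher). That call in LIS1+/+ was lost with DESeq2 (adjusted p = 0.0518), with DESeq2 size factors (0.0523), without the 3 libraries that stood apart from their groups (0.0646) and without any of 4 single libraries (0.0868 to 0.136), while the LIS1+/- decline passed without hESC LIS1+/- replicate 2 (0.0394) or Day 5 LIS1+/- replicate 3 (0.0416). By Day 12 SALL4 was down to 25.3, 25.0 and 26.7 CPM in LIS1+/- and 23.2, 26.3 and 44.6 CPM in LIS1+/+ at Day 12, with overlapping groups. The decline from Day 5 to Day 12 was 1.57 ± 0.23 on the log2 scale in LIS1+/- and 1.80 ± 0.23 in LIS1+/+, and both passed.

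L1TD1 had lost nearly all of its stem cell level by Day 5 in LIS1+/-, and its further change to Day 12 did not pass. It measured 454, 450 and 477 CPM in LIS1+/- hESC and 513, 545 and 653 CPM in LIS1+/+ hESC. At Day 5 it measured 6.70, 1.46 and 1.75 CPM in LIS1+/- and 24.0, 27.8 and 38.4 CPM in LIS1+/+, and at Day 12 it measured 6.78, 1.42 and 5.68 CPM in LIS1+/- and 9.66, 6.27 and 4.85 CPM in LIS1+/+. The groups were apart in hESC, farther apart at Day 5 and overlapping at Day 12. LIS1+/- kept 0.703% at Day 5 (0.410 to 1.21%) and LIS1+/+ kept 5.29% (3.49 to 8.04%). From Day 5 to Day 12 the change in LIS1+/- was 0.41 ± 0.51 on the log2 scale (36 against 28 counts, edgeR adjusted p = 0.649), while LIS1+/+ fell by 2.15 ± 0.38 (adjusted p = 0.000273). Without Day 5 LIS1+/- replicate 1, the highest of its group, the LIS1+/- change was 1.36 from Day 5 to Day 12 and -8.11 (in place of -7.15) from hESC to Day 5, and the Day 5 genotype difference was -4.18 (in place of -3.22). The difference between genotypes in the change from Day 5 to Day 12 was 2.55 ± 0.65 and missed the threshold (adjusted p = 0.0609). It passed under DESeq2 (0.000911), when genes with low counts were kept (1.22e-05), and without Day 5 LIS1+/- replicate 1 (0.00476) or Day 12 LIS1+/- replicate 2 (0.00827), and its adjusted p otherwise ranged up to 0.318. Of the L1TD1 3′ end, 15.4% of the runs of 40 bases occur in other genes.

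ESRG had 1434, 1313 and 1304 CPM in LIS1+/- hESC and 1518, 1628 and 1939 CPM in LIS1+/+ hESC. At Day 5 it had 9.31, 11.3 and 8.16 CPM in LIS1+/- and 82.0, 84.7 and 124 CPM in LIS1+/+. The groups were separate at both stages, narrowly in hESC and widely at Day 5. LIS1+/- kept 0.709% at Day 5 (0.378 to 1.33%) and LIS1+/+ kept 5.72% (3.42 to 9.57%). At Day 12 LIS1+/- had no ESRG counts, a level at least 3868-fold below its hESC, and LIS1+/+ had 20, 0 and 4 counts. The Day 12 counts of LIS1+/+ thus came mostly from 1 library.

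**Figure D1:**
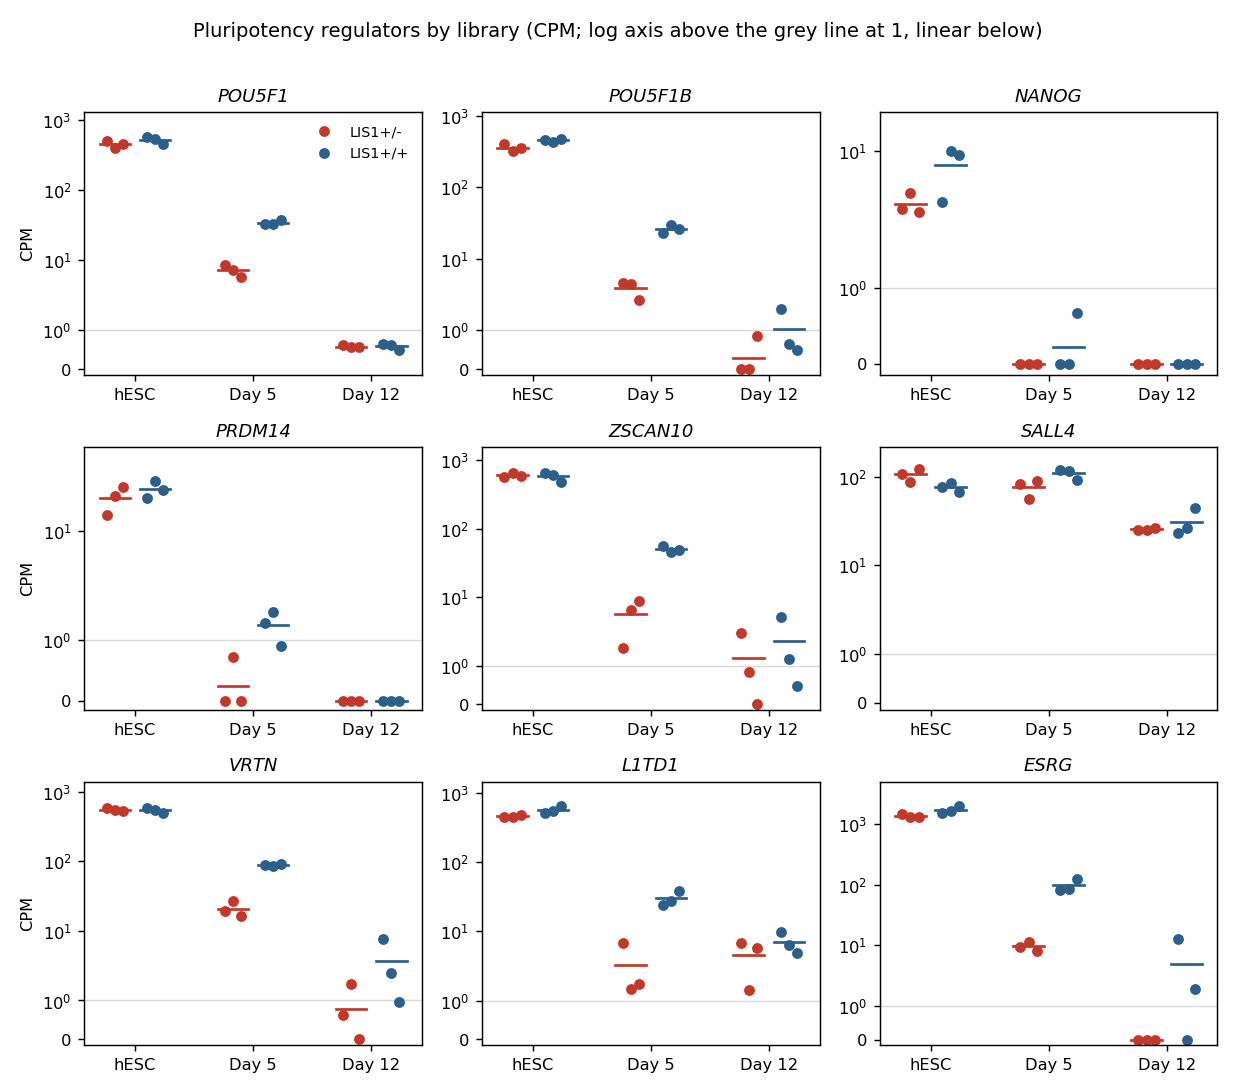
CPM of the 9 counted regulators in each library, by stage, with LIS1+/- in red left of LIS1+/+ in blue; points are libraries, short lines are means of 3, and the axis is logarithmic above 1 CPM and linear below. At Day 5 the POU5F1 libraries of LIS1+/- sit between 5.83 and 8.57 CPM and those of LIS1+/+ between 32.5 and 37.3 CPM, and SALL4 alone stays near its hESC level.

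Counted over the set, 8 of the 9 tested regulators were lower at Day 5 than in hESC in LIS1+/- and 8 in LIS1+/+, where 21.4% and 21.7% of the 12215 tested genes were called lower. NANOG and PRDM14 passed the filter through their stem cell counts alone, so their fall was built into their being tested. Over the other 7 the median log2 change was -6.56 in LIS1+/- and -3.92 in LIS1+/+, beside 0.06 over all tested genes in each. From Day 5 to Day 12, 6 were lower in LIS1+/- (background 7.64%) and 8 in LIS1+/+ (11.7%). ZSCAN10 was among the 6 (-2.59 ± 0.68, edgeR adjusted p = 0.0126), but its call was lost without Day 5 LIS1+/- replicate 3, Day 12 LIS1+/- replicate 2 or Day 12 LIS1+/- replicate 3 (adjusted p 0.0647 to 0.0729). Its value was -1.86 without the last of these and -3.66 without Day 12 LIS1+/- replicate 1. At Day 12, all 9 were lower than in hESC in LIS1+/- (25.4%) and in LIS1+/+ (25.0%). SALL4 was the least reduced by then, at 23.9% of hESC in LIS1+/- (17.3 to 33.0%) and 41.7% in LIS1+/+ (29.9 to 58.2%). POU5F1, POU5F1B, ZSCAN10, VRTN, L1TD1 and ESRG stood at 1.2% of hESC or less at Day 12 in both genotypes. NANOG and PRDM14, with no counts left, were at least 11.8-fold and 60.5-fold lower than in hESC in LIS1+/-, and at least 12.96-fold and 40.9-fold lower in LIS1+/+.

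**Figure D2:**
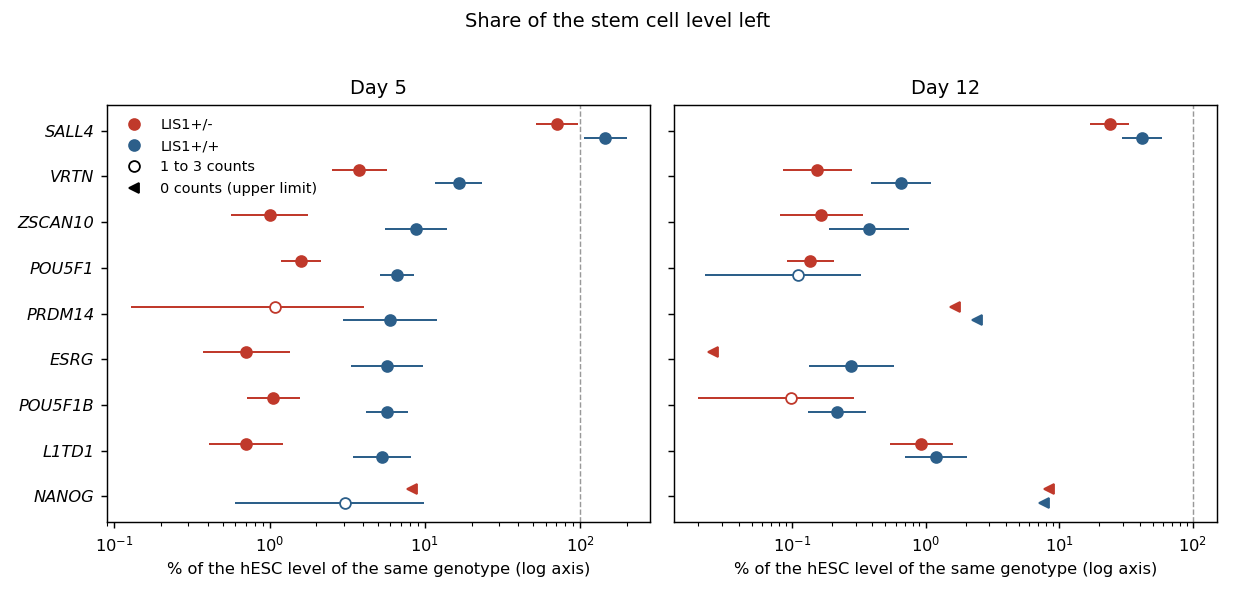
Share of the hESC level left at Day 5 (left) and Day 12 (right), in percent on a log axis, with LIS1+/- in red above LIS1+/+ in blue; lines are 95% intervals, open circles rest on 1 to 3 counts and triangles are upper limits from 0 counts. At Day 5 POU5F1 stands at 1.59% in LIS1+/- and 6.63% in LIS1+/+, and the intervals of 7 regulators, SALL4 included, do not meet; at Day 12 most intervals do.

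The timing of the loss differed between the genotypes in its first step. At Day 5, 6 of the 9 tested regulators were lower in LIS1+/- than in LIS1+/+ (background 1.28% of tested genes called lower): POU5F1, POU5F1B, ZSCAN10, VRTN, L1TD1 and ESRG. The log2 fold change was -2.25 ± 0.19 for POU5F1 (SE, n = 3 against 3, edgeR adjusted p = 4.15e-08), the gene with the second smallest p of all 12215. For POU5F1B it was -2.79 ± 0.27 (adjusted p = 3.00e-07) and for VRTN -2.10 ± 0.26 (2.93e-05). In the same scale ZSCAN10 stood at -3.08 ± 0.37 (7.69e-05), L1TD1 at -3.22 ± 0.39 (3.49e-05) and ESRG at -3.34 ± 0.39 (0.000182). Expressed as levels, LIS1+/- organoids held between 9.88% (ESRG, 95% interval 5.54 to 17.6%) and 23.4% (VRTN, 16.2 to 33.7%) of the LIS1+/+ amount of these 6 transcripts. SALL4 was not called (-0.54 ± 0.21, adjusted p = 0.266). Including PRDM14 and SALL4, 8 of the 9 had no overlap between genotypes, with LIS1+/- the lower, which held for 9.45% of all tested genes. The median over the 7 regulators with more than 3 counts in each Day 5 group, which leaves out NANOG and PRDM14, was -2.79, beside 0.01 over all tested genes.

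The same 6 genes passed the test of whether the change from hESC to Day 5 itself differed between genotypes, where 0.491% of tested genes were called in this direction. The change in LIS1+/- minus that in LIS1+/+ was -2.06 ± 0.24 log2 units for POU5F1 (edgeR adjusted p = 2.96e-05). It was -2.42 ± 0.33 for POU5F1B (0.000338), -3.13 ± 0.47 for ZSCAN10 (0.00238) and -2.12 ± 0.34 for VRTN (0.00238). L1TD1 gave -2.91 ± 0.47 (0.00345) and ESRG -3.01 ± 0.50 (0.00976). SALL4 pointed the same way at -1.03 ± 0.30 without passing (0.133), although it passed with no filter on low counts (0.0322). These differences share the Day 5 libraries with the comparison of genotypes at Day 5, so they are not a further, separate result. All 6 calls of both kinds were kept under every alternative run, single libraries left out included, except that POU5F1B has no row of its own when summed with POU5F1.

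Stem cells of both genotypes carried the regulators at levels that edgeR did not tell apart. None of the 9 passed between LIS1+/- and LIS1+/+ hESC (background 0.491% of tested genes called in either direction), 1 had an unadjusted p under 0.05, and DESeq2 also called 0. The log2 fold changes lay between -0.90 ± 0.67 for NANOG (adjusted p = 0.652) and 0.50 ± 0.21 for SALL4 (0.378), with POU5F1 at -0.18 ± 0.14 (0.673) and VRTN at 0.02 ± 0.22 (0.982). POU5F1B, L1TD1 and ESRG had no overlap with LIS1+/- lower (background 7.69%), and SALL4 had none with LIS1+/- higher (10.6%).

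At Day 12 none of the 9 passed between LIS1+/- and LIS1+/+ with edgeR (background 1.40% in either direction), 2 had an unadjusted p under 0.05 and DESeq2 called 1. No regulator separated the genotypes completely, while 8.43% of tested genes did with LIS1+/- lower and 8.47% with LIS1+/- higher. Nor did any of the 9 pass for a genotype difference in the change from Day 5 to Day 12 (background 1.06%, 2 with an unadjusted p under 0.05, 1 called by DESeq2) or from hESC to Day 12 (background 0.377%, 3 with an unadjusted p under 0.05, 1 called by DESeq2). ESRG came closest, with 0 against 24 counts, at least 13.3-fold lower in LIS1+/- (adjusted p = 0.0516), and the groups overlapped because LIS1+/+ replicate 2 was also at 0. The number of regulators called was 1 without Day 12 LIS1+/+ replicate 2 and 2 without Day 12 LIS1+/+ replicate 3. VRTN stood at -2.05 ± 0.69 (0.17). SALL4 differed by -0.31 ± 0.24 (0.624) and L1TD1 by -0.67 ± 0.50 (0.604). With so few counts left, differences of the size seen at Day 5 could not be resolved for POU5F1, POU5F1B, NANOG or PRDM14. The VRTN value of -2.05, on 7 against 18 counts, was close to its Day 5 difference of -2.10 and still did not pass. ZSCAN10 stood at -1.14 on 8 against 11 counts. Its confidence interval, from -3.09 to 0.81, included its Day 5 difference of -3.08.

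Genes that work with these regulators in stem cells moved unevenly. Of 28 listed partners and effectors of the primed state, the state of conventional human stem cells, 24 were tested. At Day 5, 10 of them were lower in LIS1+/- than in LIS1+/+ and 1 was higher (background 1.28% and 0.671% of tested genes), with a median of -1.0 beside 0.01 for all tested genes. TDGF1, the co-receptor of NODAL signalling, was lower by -2.86 ± 0.39 (2.98, 3.28 and 0.583 CPM in LIS1+/- and 11.8, 13.9 and 22.2 CPM in LIS1+/+). CD9, a membrane tetraspanin, stood at -2.63 ± 0.23, LEFTY1, an inhibitor of NODAL, at -3.00 ± 0.65 and DNMT3B, a de novo DNA methyltransferase, at -0.90 ± 0.15. In hESC too, every LIS1+/- library stood below every LIS1+/+ library for TDGF1, CD9, LEFTY1 and DNMT3B (background 7.69% of tested genes). Means there, LIS1+/- first, were 812 and 1292 CPM for TDGF1 and 296 and 462 CPM for CD9. They were 256 and 369 CPM for LEFTY1 and 1193 and 1599 CPM for DNMT3B. Over the 24 tested genes the hESC median was -0.36 and 0 passed (background 0.491%), with 9 at an unadjusted p under 0.05 (edgeR). NODAL itself (-3.54 ± 0.54) and FOXH1 (-3.58 ± 0.50), the DNA-binding partner of its SMAD effectors, were named after their values were seen. LEFTY2, from the same list, was not lower. It averaged 13.1 CPM in LIS1+/- and 7.17 CPM in LIS1+/+ at Day 5, with overlapping groups.

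SOX2, the partner of POU5F1, stayed on. It measured 575, 805 and 644 CPM in LIS1+/- and 679, 698 and 666 CPM in LIS1+/+ at Day 5, with overlapping groups (-0.01 ± 0.17, edgeR adjusted p = 0.99). Its Day 5 level was above hESC in LIS1+/- (0.52 ± 0.17) and in LIS1+/+ (0.43 ± 0.17, adjusted p = 0.0426). The microRNA-processing regulator LIN28A (-0.67 ± 0.21, 0.129) and the chromatin factor DPPA4 (-0.50 ± 0.18, 0.223) were not called between genotypes at Day 5. The 1 primed state gene that was higher was SFRP2, a secreted WNT modulator, at 1.12 ± 0.17, also named after its value was seen. Of 12 genes of the naive state, an earlier form of pluripotency, 4 were tested and summed levels were low in both genotypes, at 9.33 to 12.3 CPM in LIS1+/- and 10.3 to 16.1 CPM in LIS1+/+ at Day 5. The naive state factor TFCP2L1 had 1 count in LIS1+/- and 0 in LIS1+/+ at that stage.

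Of 22 listed paralogs and pseudogenes of the regulators 9 were tested. At Day 5 against hESC 4 were higher in LIS1+/- (background 22.4% of tested genes), while 8 were higher (22.9%) and 1 lower (21.7%) in LIS1+/+. The 4 named next had the smallest adjusted p in LIS1+/+ for this same step. The neural POU factors POU3F2 and POU3F1 rose by 4.10 ± 0.35 and 2.26 ± 0.32 log2 units in LIS1+/-, and by 3.76 ± 0.35 and 3.08 ± 0.32 in LIS1+/+. POU3F3 rose by 2.13 ± 0.42 in LIS1+/+, from 14 counts in hESC, and PRDM16 by 3.14 ± 0.70 in LIS1+/-, from 4 counts. In LIS1+/- POU3F3 went from 2 counts in hESC to 99 at Day 5, and in LIS1+/+ PRDM16 went from 2 to 78. At Day 5 POU3F3 averaged 11.0 CPM in LIS1+/- and 11.8 CPM in LIS1+/+, and PRDM16 5.70 CPM and 5.95 CPM. Between genotypes at Day 5 only SALL1, a paralog of SALL4 named after its value was seen, passed (-0.67 ± 0.17).

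Markers of other cell types differed between genotypes at Day 5 in some lists and overlapped in others. Of 10 neural progenitor markers, all tested, 3 were higher in LIS1+/- (background 0.671%) and the other 7 were not called. The median log2 fold change over the 10 was 0.71, and 6 had an unadjusted p under 0.05 with edgeR. In hESC the median over the 10 was already 1.06, and 1 was called higher (background 0.491% in either direction). For the genotype difference in the change from hESC to Day 5 the median was -0.38, and 0 of the 10 passed. The summed level of the 10 ranged from 2323 to 3590 CPM in LIS1+/- and from 2293 to 3625 CPM in LIS1+/+. NES and HES5 made up most of that sum, with means of 1120 and 729 CPM in LIS1+/- and 1236 and 986 CPM in LIS1+/+. Of the 6 primitive streak and mesoderm markers in the files, 3 were tested and 2 were lower in LIS1+/- (background 1.28%), and the summed level ranged from 2.98 to 6.19 CPM in LIS1+/- against 19.2 to 59.3 CPM in LIS1+/+. MIXL1, a homeobox gene of the primitive streak, had 1, 2 and 3 counts in LIS1+/- and 57, 65 and 190 in LIS1+/+. The mesoderm factor T, also known as Brachyury, had 0 counts in all 3 LIS1+/- libraries and 6, 1 and 10 in LIS1+/+. MIXL1 made up most of the LIS1+/+ sum, at a mean of 23.7 CPM, followed by EOMES at 5.89 CPM. Their LIS1+/- means were 0.659 and 0.243 CPM. The other markers of this list were not lower in LIS1+/-. GSC averaged 2.37 CPM in LIS1+/- and 1.65 CPM in LIS1+/+, and MESP1 1.606 and 1.604 CPM, both with overlapping groups. HAND1 had 1 count in each genotype. The 5 definitive endoderm markers summed to 43.2 to 54.6 CPM in LIS1+/- and 51.7 to 74.8 CPM in LIS1+/+. CXCR4 made up most of that, and the 4 markers without it summed to 0 to 2.04 CPM in LIS1+/- and 1.35 to 11.7 CPM in LIS1+/+, with SOX17 at 0 in LIS1+/- and at 12, 1 and 24 counts in LIS1+/+. Over the group, FOXA2 had 0 counts in LIS1+/- and 27 in LIS1+/+, GATA6 had 2 and 10, and GATA4 had 9 and 7. Of the 5 endoderm markers 2 were tested between genotypes at Day 5, and 0 passed (background 1.28% lower and 0.671% higher). The 6 mesenchyme markers summed to 23.0 to 28.3 CPM in LIS1+/- and 51.9 to 64.5 CPM in LIS1+/+, and 1 of 5 tested, the collagen gene COL1A2 (named after its value was seen), was lower in LIS1+/- (background 1.28%). COL1A2 made up most of that sum, at a mean of 17.5 CPM in LIS1+/- and 49.9 CPM in LIS1+/+. The next highest, COL1A1, averaged 4.15 CPM in LIS1+/- and 4.26 CPM in LIS1+/+. The 6 trophectoderm and amnion markers summed to 5.54 to 11.7 CPM in LIS1+/- and 7.69 to 14.6 CPM in LIS1+/+, with CGA and GCM1 at 0 in both genotypes. The 6 primordial germ cell markers summed to 5.96 to 13.1 CPM in LIS1+/- and 7.19 to 7.93 CPM in LIS1+/+, with DAZL and DND1 at 0 in both. The part of these cells in the levels of the pluripotency regulators was not tested.

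**Figure D3:**
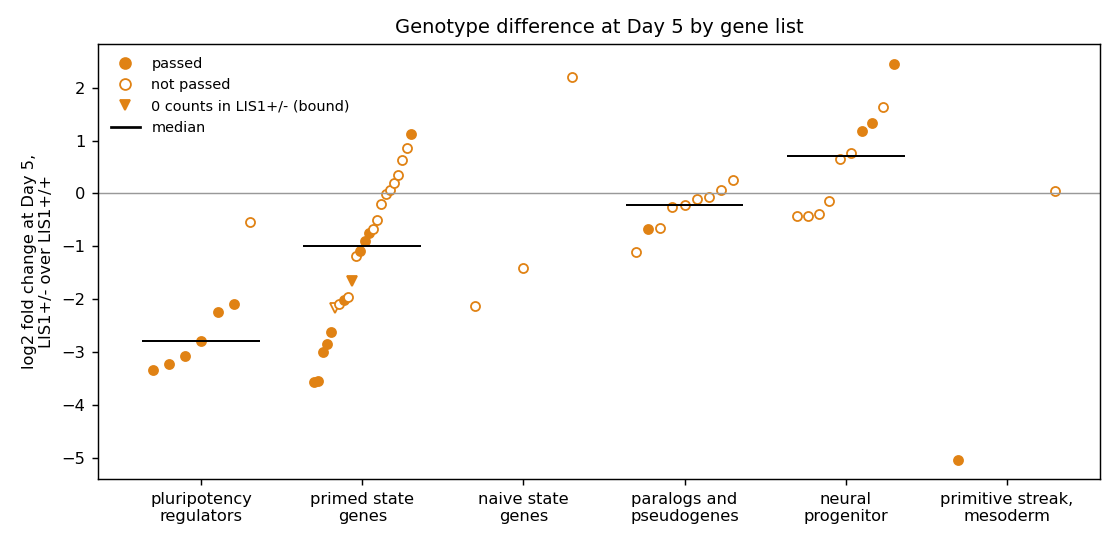
Log2 fold change of LIS1+/- over LIS1+/+ at Day 5 for each tested gene of 6 lists; filled points passed, open points did not, and triangles are bounds for genes with 0 counts in LIS1+/-, other genes with 3 counts or fewer in a group are left out, and black lines are medians of lists with 5 points or more. The 7 regulators shown lie at a median of -2.79, the primed state genes at -1.0 and the neural progenitor markers at 0.71.

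Over the 18 libraries each regulator other than SALL4 tracked the mean of the others with a Pearson r of 0.88 to 0.995, and SALL4 with 0.693. These values describe libraries that share stages and depth. Among 8100 other genes with at least 10 CPM in LIS1+/+ hESC, the 8 closest to the mean of the set were PODXL (r = 0.989), TDGF1 (0.989), STEAP3 (0.986), RBPMS (0.986), LECT1 (0.985), DNMT3B (0.985), TNFRSF8 (0.983) and MTHFD1 (0.982). PODXL, a surface sialomucin that carries stem cell antigens, averaged 60.7 CPM in LIS1+/- and 247 CPM in LIS1+/+ at Day 5. LECT1 averaged 4.27 CPM in LIS1+/- and 24.5 CPM in LIS1+/+ at that stage, and MTHFD1, an enzyme of folate metabolism, 213 CPM in LIS1+/- and 267 CPM in LIS1+/+. The genes that followed the set most closely across stages therefore differed among themselves in how far apart the genotypes stood at Day 5.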

How the data were processed

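The deposited files hold raw counts of MARS-seq tags per gene symbol, 1 file per library, whole numbers with no normalization by the authors. The submitters' processing notes list cutadapt, STAR and DESeq2 (no versions) and, as builds, GRCh37 and hg38. What each was used for, whether strand was used and whether molecular identifiers were collapsed was not stated in any source used here. In each file, 5 closing rows that name no gene were left out of library sizes and tests. They held between 49.2% and 70.6% of all counts in a file.

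Genes were filtered with filterByExpr, which kept 12215, scaled with TMM and tested with the quasi-likelihood test of edgeR 4.0.16 (R 4.3.3) in 1 fit of all 18 libraries by group, with 12 residual degrees of freedom. Tests were two-sided, with Benjamini-Hochberg adjustment across the tested genes and a threshold of 0.05. All adjusted p-values come from this test unless another tool is named, and errors are SE of the fit. Groups with 1 to 3 counts are compared by pooled counts with a 95% counting interval, and groups with 0 by a floor of 3 counts over the group. Such intervals and floors cover counting error only. Nothing in the labels ties the 3 libraries of a group to separate cultures, and p-values reflect only how far these libraries spread. Chi-square tests found no libraries alike within sampling noise.

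The 10 regulators and the companion lists were chosen with earlier results of these data known. From each list the text names up to 4 members with the smallest adjusted p in LIS1+/+ from hESC to Day 5, with SOX2, LIN28A, DPPA4 and TDGF1 always, and the 8 genes most like the set. Genes outside this rule, untested markers such as T and SOX17 among them, were named with their values known. Alternatives were DESeq2 1.42.0, its size factors, no filter, a fit restricted to the groups compared, a replicate block, each library left out, 3 libraries that stood apart left out (hESC LIS1+/+ replicate 3, Day 5 LIS1+/- replicate 2, Day 12 LIS1+/+ replicate 2), and POU5F1 summed with POU5F1B. Shared 3′ sequence was counted in transcripts of GENCODE release 29. The fit was tested on simulated data. Figures were drawn with Matplotlib 3.10.9.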

Additional observations from a re-analysis of the deposited data

Results flagged for a closer look

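The change from hESC to Day 5 differed between LIS1+/- and LIS1+/+, by the interaction term of the edgeR fit, in 6 regulators. The log2 change in LIS1+/- minus that in LIS1+/+ was -2.06 for POU5F1, -2.42 for POU5F1B, -3.13 for ZSCAN10, -2.12 for VRTN, -2.91 for L1TD1 and -3.01 for ESRG. All 3 LIS1+/- libraries stood below all 3 LIS1+/+ libraries at Day 5 for each of these genes.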

How the results depend on the processing

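The 6 regulators called between genotypes at Day 5, and the 6 called for the difference in change from hESC to Day 5, were called under every alternative run, except that POU5F1B has no row of its own when summed with POU5F1. Leaving out single libraries kept both numbers at 6, and summing the pair gave 5 for each. The number called between genotypes at Day 12 was 0, but 2 with no filter on low counts, 1 with DESeq2, 1 without the 3 libraries that stood apart, and 0 to 2 with single libraries left out. For the difference from Day 5 to Day 12 it was 0, but 1 with no filter, 1 with DESeq2 and 0 to 1 with single libraries left out (1 without Day 5 LIS1+/- replicate 1 or Day 12 LIS1+/- replicate 2). For the difference from hESC to Day 12 it was 0, but 1 with no filter, 1 with DESeq2, 1 without the 3 libraries, and 0 to 1 with single libraries left out. The cause was not tested. Values near 0 or on few counts changed sign. The POU5F1 genotype difference at Day 12 became -0.01 with DESeq2 size factors, -0.01 with DESeq2 and -0.71 when summed with POU5F1B, and its difference from hESC to Day 12 became -0.45 when summed. The VRTN difference from Day 5 to Day 12 became -0.03 with DESeq2. Without the 3 libraries the hESC genotype difference became -0.07 for ZSCAN10 and -0.03 for VRTN, and the SALL4 difference from Day 5 to Day 12 became -0.07. With single libraries left out the hESC genotype difference ran from -0.07 to 0.14 for ZSCAN10 and from -0.03 to 0.09 for VRTN. The Day 12 genotype difference ran from -0.13 to 0.07 for POU5F1, from -2.20 to 0.19 for ZSCAN10 and from -0.48 to 0.05 for SALL4. The difference from hESC to Day 12 ran from -2.25 to 0.14 for ZSCAN10 and from -0.73 to 0.16 for L1TD1. The difference from Day 5 to Day 12 ran from -1.60 to 2.19 for POU5F1B and from -1.76 to 1.11 for VRTN. Whether the replicate numbers pair the samples was not settled. Of 45 same-numbered pairs 4 correlated over 0.1, and 10 of 18 libraries were closest to their own number. The mean r was 0.0098 for same-numbered pairs and -0.0047 for the other pairs. With the replicate number as a block the counts of regulators called did not move, at 6 between genotypes at Day 5, and 86 of 86 results for single regulators kept direction and call. Depth limits NANOG, PRDM14 and all Day 12 values other than those of SALL4.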
